A study of Mus musculus with 6 samples.

Results

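The endoplasmic reticulum (ER) folds secreted and membrane proteins, and 35 genes of that work were followed in RAW264.7 cells, a mouse macrophage-like line, given a lentiviral Fbxw11 vector. They were taken by gene name from the deposited table of 56748 genes, and all 35 were found, with 1 row each. They comprise 9 luminal chaperones and co-chaperones, 2 lectin chaperones, 4 disulfide isomerases, 12 factors of ER-associated degradation, 5 sensors and signalling genes and 3 translocon subunits. The list was put together by function and not by these measurements, though with earlier results of the same table known.

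RNA was sequenced from 3 libraries of cells infected with virus made from pMSCV-Fbxw11-pGk-GFP and 3 libraries of cells infected with a control vector, all of them sorted before RNA extraction. Library names call the control GFP, and neither what that vector holds nor the sorting gate is described further. No stimulus, time after infection or clone is named, and separate cultures are not mentioned, so each p-value covers the spread of these libraries alone, which may be technical. Fbxw11 encodes an F-box protein that selects proteins for ubiquitination, and the title of the series concerns macrophage polarization.

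Proteins enter the ER through the Sec61 channel and are folded by the Hsp70-type chaperone BiP (Hspa5), the Hsp90-type chaperone of the lumen, lectin chaperones that read N-glycans and disulfide isomerases. Those that fail are recognised by lectins, threaded back through a membrane complex around Sel1l and its ubiquitin ligase, and degraded by the proteasome. When unfolded protein builds up, the sensors IRE1 (Ern1), PERK (Eif2ak3) and ATF6 raise transcription of the chaperone and degradation genes, in part through the factor XBP1. Macrophages that secrete cytokines are known to use this unfolded protein response, and IRE1 and XBP1 also act in their inflammatory signalling.

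Upstream sequence is shown first because chaperone genes are known for a shared promoter element, the ER stress response element (ERSE). RefSeq promoter windows (build GRCm38.p6) were matched by symbol for 30 of the 35 genes (all but Hyou1, Manf, Atf6, Derl1 and Sec61a1), and the 250 bases before each transcript start were searched on both strands. The letters searched were CCAAT, any 9 bases and CCACG for ERSE, ATTGG, any base and CCACG for ERSE-II, TGACGTG for the core of the XBP1 element (UPRE) and TGACGTCA for the cyclic AMP response element (CRE). ERSE was found in 9 of 30 genes (30%), against 0.152% of 7889 tested genes with a window and 0.130% of all 27025 genes. Both comparison sets include the members, and of the 12 tested genes with ERSE 8 were members. Because the element is known from chaperone genes, its share among the members is not an independent result. ERSE-II was found in 1 member against 0.0887% of tested genes, the UPRE core in 2 (6.67% against 2.93%) and CRE in 1 (3.33% against 3.32%). A looser ERSE, the same letters with the last base free and so overlapping every ERSE, was found in 13 of 30 (43.3% against 0.355%), adding Derl2, Herpud1, Pdia3 and Pdia4. The core of the amino acid response element (CARE), TGATGCAAT, was found in 0 of 30 (0.127% of tested genes). A match is a description of letters and not a bound site. The stretches of Hspa5 and Hsp90b1 are given as those of the main luminal chaperones, both with an ERSE, and those of Sel1l and Xbp1 as genes that rose in every analysis run. Each is written 5′ to 3′ on the strand of its gene, with the fixed letters of matches to ERSE, ERSE-II, the UPRE core and CRE in capitals.
Hspa5 chr2:34771840-34772089 (plus strand): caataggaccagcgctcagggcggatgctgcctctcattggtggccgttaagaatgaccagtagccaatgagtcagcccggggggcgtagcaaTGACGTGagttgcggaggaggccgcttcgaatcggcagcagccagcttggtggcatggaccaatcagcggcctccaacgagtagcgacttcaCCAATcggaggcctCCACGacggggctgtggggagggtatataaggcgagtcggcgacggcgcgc
Hsp90b1 chr10:86705445-86705694 (minus strand): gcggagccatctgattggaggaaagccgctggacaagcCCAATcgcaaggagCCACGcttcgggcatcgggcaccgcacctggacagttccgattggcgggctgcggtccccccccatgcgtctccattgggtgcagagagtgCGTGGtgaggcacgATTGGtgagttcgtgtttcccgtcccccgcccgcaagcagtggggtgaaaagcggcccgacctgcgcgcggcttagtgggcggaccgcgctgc
Sel1l chr12:91849158-91849407 (minus strand): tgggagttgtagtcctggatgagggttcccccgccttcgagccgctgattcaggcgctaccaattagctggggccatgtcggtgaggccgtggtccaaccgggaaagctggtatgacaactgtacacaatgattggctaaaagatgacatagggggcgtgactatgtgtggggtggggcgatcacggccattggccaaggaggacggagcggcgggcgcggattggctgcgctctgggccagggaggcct
Xbp1 chr11:5520391-5520640 (plus strand): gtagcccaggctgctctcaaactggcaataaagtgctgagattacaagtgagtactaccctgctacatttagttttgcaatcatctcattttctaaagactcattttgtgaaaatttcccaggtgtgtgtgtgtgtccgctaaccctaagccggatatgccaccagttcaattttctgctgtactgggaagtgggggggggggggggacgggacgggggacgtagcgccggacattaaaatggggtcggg

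The other ERSE matches, the ERSE-II of Herpud1 and the CRE of Ppp1r15a are written in the same way, with up to 5 flanking bases on each side, to let the spacing of the element be compared between genes. Hspa5 and Syvn1 carried an ERSE near the start (65 to 47 and 44 to 26 bases upstream), and Hsp90b1 carried 2 ERSE matches in opposite orientations.
Calr chr8:84847070-84847098 (minus strand): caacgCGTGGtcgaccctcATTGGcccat
Canx chr11:50325795-50325823 (minus strand): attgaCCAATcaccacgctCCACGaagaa
Creld2 chr15:88819515-88819543 (plus strand): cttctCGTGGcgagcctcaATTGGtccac
Dnajc3 chr14:118937822-118937850 (plus strand): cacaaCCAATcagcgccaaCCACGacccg
Pdia6 chr12:17266486-17266514 (plus strand): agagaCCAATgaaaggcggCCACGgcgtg
Syvn1 chr19:6046527-6046555 (plus strand): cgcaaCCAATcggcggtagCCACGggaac
Derl3 chr10:75893237-75893265 (plus strand): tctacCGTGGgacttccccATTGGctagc
Herpud1 chr8:94386372-94386392 (plus strand): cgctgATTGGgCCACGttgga
Ppp1r15a chr7:45526269-45526285 (minus strand): tccggTGACGTCAgcac

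**Figure D1:**
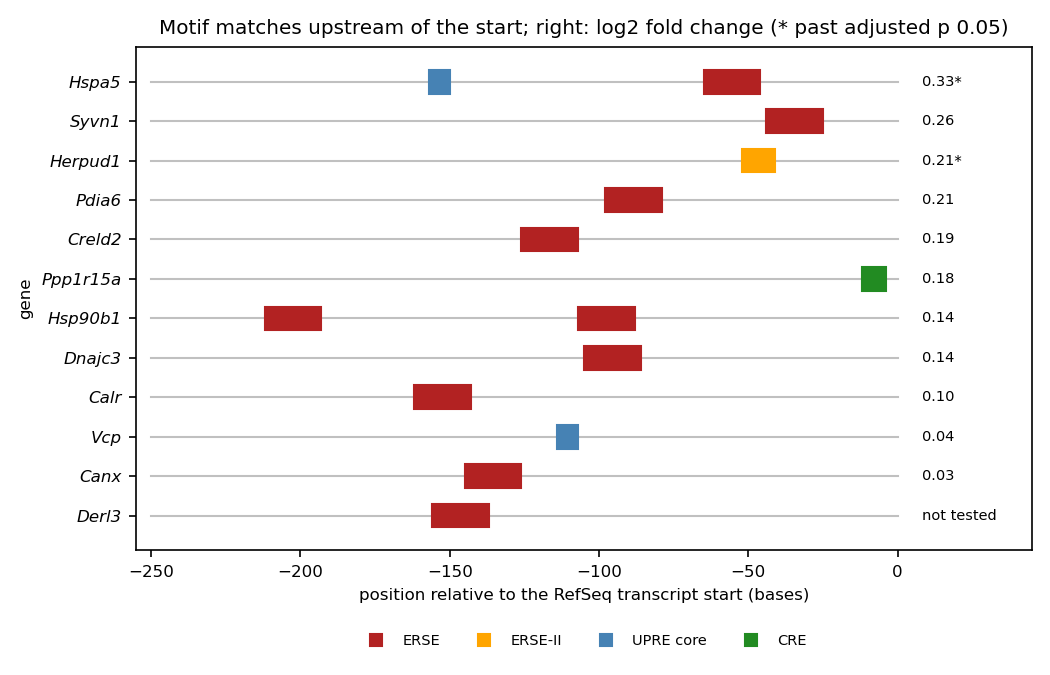
Positions of the motif matches in the 250 bases before the RefSeq transcript start (x axis, in bases, 0 at the start) for the 12 genes with a match to ERSE, ERSE-II, the UPRE core or CRE. The number at the right is the log2 fold change of the gene (Fbxw11 minus control), and a star marks an adjusted p under 0.05, reached here by Hspa5 and Herpud1 (Derl3 was not tested).

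Levels are given as FPKM, fragments per kilobase of gene length scaled by library size, as deposited, so that genes can be compared per length. Differences were tested with limma on log2(FPKM + 1) over the 10898 genes that averaged 1 FPKM or more, with Benjamini-Hochberg adjustment over all of them and a threshold of 0.05. "Rose" and "fell" are used only past that threshold, for Fbxw11 against control. Of the 35 genes, 34 passed the filter. Derl3, a derlin known mainly from secretory tissues, did not, with 16, 8 and 20 reads in the control libraries and 7, 4 and 17 in the Fbxw11 libraries (0.488, 0.209 and 0.592 FPKM with control vector and 0.216, 0.112 and 0.501 FPKM with Fbxw11). Its groups overlapped, and no difference was detectable at this depth.

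The vector's own gene checked the labels. Fbxw11 stood at 35.8, 36.5 and 36.0 FPKM in the control libraries and 274, 272 and 268 FPKM in the Fbxw11 libraries. Over all genes tested 9.24% passed, with 501 rises (4.60%) and 506 falls (4.64%). That split depended on scaling, at 348 rises and 712 falls on the TPM scale and 381 and 691 over plain read sums. Between 16191971 and 18951653 reads per library were recovered from the FPKM steps, and tested members had between 290 and 88611 reads in a library. Of 10 macrophage markers 9 averaged at least 1 FPKM, while Mertk was listed at 0 in 5 libraries, and their sum was between 4224 and 4398 FPKM with control vector and between 4681 and 4806 FPKM with Fbxw11. T and NK cell markers summed to at most 0.130 FPKM, epithelial markers to 0.102 and fibroblast markers to 1.08, none of them at 1 FPKM alone. B cell markers summed to between 7.19 and 8.04 FPKM in control and between 5.45 and 7.26 in Fbxw11 libraries, and plasma cell markers to between 8.29 and 8.78 and between 5.90 and 7.26. Their part in the results below was not tested. Mitochondrial genes took between 1.56% and 1.73% of reads in control and between 1.44% and 1.69% in Fbxw11 libraries. Control library 3 and Fbxw11 library 3 stood apart from the other 4 on the second principal component (23.7% of the variance), and counts without both are given for the members and each list. In bulk RNA, more cells expressing a gene and more RNA per cell cannot be told apart.

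The listed genes of ER folding and degradation were mostly higher in the Fbxw11 libraries, by small amounts. Of 34 tested, 11 rose (32.4%) and 1 fell, against the 4.60% and 4.64% of all genes tested. The 11 were Hspa5, Hyou1, Manf, P4hb, Herpud1, Sel1l, Derl1, Selenos, Xbp1, Sec61a1 and Sec61b, and Edem1 fell. The log2 fold change was above 0 in 32 of 34 (94.1%), against 50.9% of all genes tested, and its median was 0.17 against 0.00. Values did not overlap between groups and were higher in the Fbxw11 libraries for 24 of 34, against 15.6% of all genes tested. Of the 32 members with at least 10 FPKM 11 rose, 1 fell and 23 lay higher without overlap, where 7.81%, 4.31% and 22.3% of 4598 genes at that level did. That level was chosen after seeing the data.

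Most of these calls lay near the threshold. Hspa5, Sel1l and Xbp1 passed with each single library left out, while each of the other 9 calls was lost in 3 to 6 of the 6 omissions, with adjusted p between 0.0504 and 0.159 where lost. The call was lost in 3 omissions for Sec61b, in 4 for Derl1, Sec61a1 and Hyou1, in 5 for Manf, P4hb, Selenos and Edem1 and in 6 for Herpud1. Leaving out control library 1 left 3 members that rose, against 1.97% of all genes tested. Leaving out control library 2 left 4 (1.74%) and control library 3 left 7 (3.42%). For Fbxw11 library 1 the number was 5 (2.39%), for Fbxw11 library 2 it was 3 (2.28%) and for Fbxw11 library 3 it was 11 (3.84%). The 5 include Dnajb9 and the 11 include Creld2 and Pdia6, which did not pass in the reported analysis. Without both libraries numbered 3, 10 rose and 0 fell (3.36% and 3.08% of all genes tested), with Creld2 and Pdia6 among the 10, and 28 of 34 lay higher without overlap, against 28.8% of all genes tested. Those 10 were 3 of 9 luminal chaperones and co-chaperones, 2 of 4 disulfide isomerases, 3 of 11 factors of ER-associated degradation, 1 of 5 sensors and signalling genes and 1 of 3 translocon subunits. On the TPM scale 6 rose (3.19% of all genes tested) and 28 of 34 log2 fold changes were above 0. The member median was 0.13 on that scale, against -0.038 for all genes tested. With a replicate block, which treats same-numbered libraries as pairs, 5 members rose and 0 fell, with 303 rises and 318 falls over all genes tested. Those 5 were Hspa5, Sel1l, Xbp1, Derl1 and Herpud1. The Edem1 call was lost in 5 of the omissions, without both libraries numbered 3 (0 fell) and with the replicate block.

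**Figure D2:**
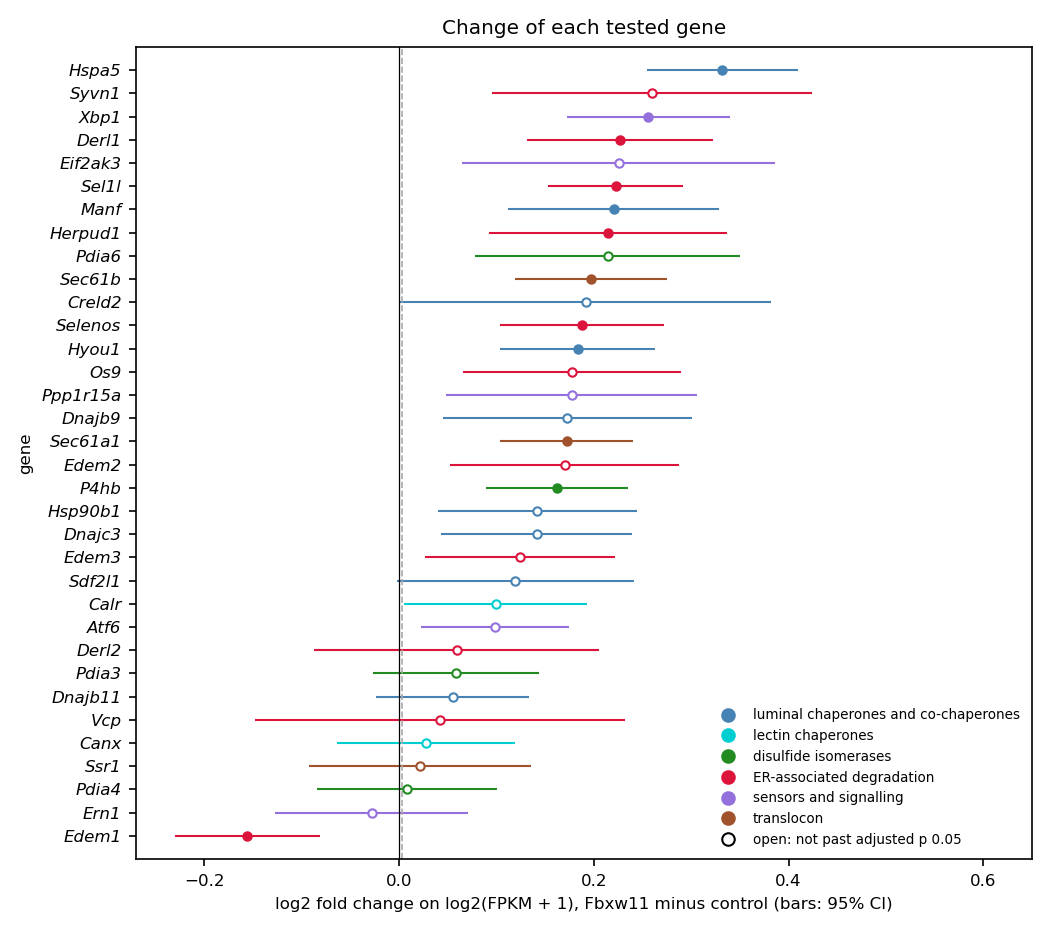
Log2 fold change of each tested gene on the log2(FPKM + 1) scale (x axis, Fbxw11 minus control) with its 95% confidence interval from limma, coloured by role. Filled points passed the threshold, and the dashed line is the median of all 10898 genes tested, 0.00. Hspa5 lies highest at 0.33 and Edem1 lowest at -0.16.

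Luminal chaperones and their co-chaperones rose in 3 of 9, and all 9 log2 fold changes were above 0 (0.06 to 0.33). Hspa5, the BiP chaperone that also holds the sensors inactive, was the most abundant member. It lies on chromosome 2, at 34661982 to 34667559 by the deposited table, which states no build. Hspa5 was measured at 917, 908 and 919 FPKM with control vector and 1157, 1174 and 1125 FPKM with Fbxw11. The lowest Fbxw11 library lay far above the highest control, and Hspa5 rose 1.26-fold (log2 fold change 0.33, SE 0.032, adjusted p = 0.00279), a call lost where genes with low values were also tested (adjusted p = 0.0694). Hyou1, a large Hsp70-type protein that exchanges nucleotide on BiP, rose from 81.6, 81.8 and 84.9 to 96.6, 93.1 and 92.6 FPKM (log2 fold change 0.18, SE 0.033, adjusted p = 0.0208). Manf, a small secreted protein that binds BiP and is induced by ER stress, rose from 81.9, 74.9 and 79.0 to 93.3, 93.8 and 88.0 FPKM (log2 fold change 0.22, SE 0.045, adjusted p = 0.031). In both, every Fbxw11 library was above every control.

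Hsp90b1, the Hsp90-type chaperone that folds Toll-like receptors and integrins, stood at 392, 361 and 384 FPKM with control vector and 416, 431 and 408 FPKM with Fbxw11 (log2 fold change 0.14, SE 0.043, adjusted p = 0.0954). Its groups did not overlap, but the difference did not pass. That difference was smaller than for Hspa5 (log2 fold change 0.33), and the control libraries spread by more than those of Hspa5. The ratio of Hspa5 to Hsp90b1 within a library, 1 of 4 such ratios, all chosen after the values were seen, was 2.41 ± 0.0904 in control and 2.75 ± 0.0303 in Fbxw11 libraries (SD, n = 3, exact two-sided permutation p = 0.10, the smallest that 3 against 3 allows, and 0.133 adjusted over the 4).

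Creld2 and Sdf2l1, both known as genes induced by ER stress, differed between Fbxw11 libraries. Creld2, a disulfide isomerase-like protein, was at 97.4, 95.9 and 89.5 FPKM with control vector and 117, 112 and 95.3 FPKM with Fbxw11 (adjusted p = 0.201). Fbxw11 library 3 fell within the control range, and without it Creld2 passed (adjusted p = 0.0315). Sdf2l1, which keeps BiP substrates soluble, was at 85.7, 84.5 and 83.2 FPKM with control vector and 98.8, 90.3 and 86.9 FPKM with Fbxw11 (adjusted p = 0.211), again lowest in Fbxw11 library 3. The J-domain co-chaperones, which hand substrates to BiP, did not pass. Dnajb9 stood at 26.3 ± 0.568 FPKM with control vector and 29.9 ± 2.04 FPKM with Fbxw11 (SD, n = 3), Dnajc3 at 26.2 ± 0.927 and 29.0 ± 0.905 FPKM, and Dnajb11 at 71.8 ± 1.39 and 74.7 ± 1.75 FPKM. Dnajb9 and Dnajc3 did not overlap between groups, while Dnajb11 did. Among the alternatives, Dnajb9 passed only by limma with Fbxw11 library 1 left out (adjusted p = 0.0427), and Dnajc3 only with voom on recovered reads.

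**Figure D3:**
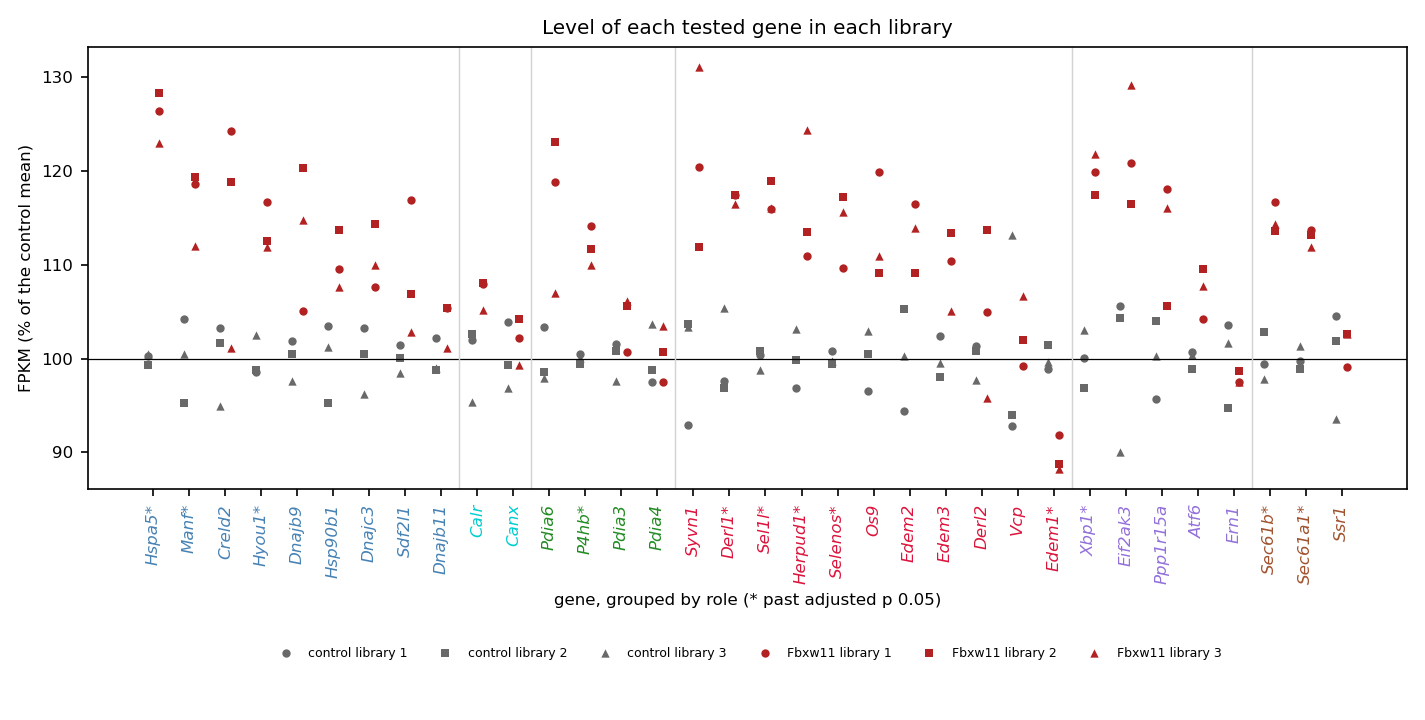
FPKM of each tested gene in each library as a percentage of its control mean (y axis), with genes on the x axis grouped by role and coloured as in the plot of fold changes. Grey symbols are the 3 control libraries, red symbols the 3 Fbxw11 libraries and a star marks an adjusted p under 0.05. Fbxw11 library 3 (triangles) sits lowest of the Fbxw11 libraries for Creld2, Pdia6 and Sdf2l1 and highest for Herpud1 and Syvn1.

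The lectin chaperones did not pass. Calr, calreticulin, which binds monoglucosylated glycans and stores calcium in the lumen, stood at 528, 531 and 493 FPKM with control vector and 559, 559 and 544 FPKM with Fbxw11 (log2 fold change 0.10, SE 0.039, adjusted p = 0.185). Its membrane-bound relative calnexin, Canx, stood at 222, 212 and 207 FPKM with control vector and 218, 222 and 212 FPKM with Fbxw11, with overlapping groups and a 95% confidence interval of -0.06 to 0.12 for the log2 fold change.

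Of the disulfide isomerases 1 of 4 rose. P4hb, the archetypal protein disulfide isomerase, was the second most abundant member and rose from 571, 565 and 568 to 649, 635 and 625 FPKM (log2 fold change 0.16, SE 0.031, adjusted p = 0.0233). Pdia6, which also acts on the sensor IRE1, was at 149, 142 and 141 FPKM with control vector and 171, 178 and 154 FPKM with Fbxw11 (log2 fold change 0.21, SE 0.057, adjusted p = 0.068), passing only with Fbxw11 library 3 left out (adjusted p = 0.0197 without it) or with both libraries numbered 3 left out, or with voom on recovered reads. Pdia3, the partner of calnexin and calreticulin, stood at 359 ± 7.58 and 374 ± 10.7 FPKM (adjusted p = 0.365). Pdia4 stood at 139 ± 4.59 and 140.0 ± 4.14 FPKM, with a confidence interval of -0.08 to 0.10, and its sign turned on the TPM scale. The ratio of Pdia6 to Pdia4 within a library was 1.04 ± 0.0601 in control and 1.20 ± 0.111 in Fbxw11 libraries, with overlapping groups (SD, n = 3, exact two-sided permutation p = 0.20, adjusted 0.20).

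Of 11 tested members of ER-associated degradation 4 rose and 1 fell. Sel1l, the scaffold that couples substrates to the ubiquitin ligase Syvn1, was at 51.5, 51.8 and 50.7 FPKM with control vector and 59.5, 61.1 and 59.6 FPKM with Fbxw11. The groups were tight and well apart, and Sel1l rose 1.17-fold (log2 fold change 0.22, SE 0.029, adjusted p = 0.007), a call kept under all 15 alternatives. Syvn1 itself stood at 13.4, 14.9 and 14.9 FPKM with control vector and 17.3, 16.1 and 18.9 FPKM with Fbxw11, a 1.21-fold difference whose spread was larger (log2 fold change 0.26, SE 0.069, adjusted p = 0.0677). Syvn1 overlaps Mrpl49 on the opposite strand (14.1 and 12.4 FPKM in the control and Fbxw11 means). Derl2 overlaps Mis12 (17.6 and 16.1 FPKM) and Manf overlaps Dcaf1 (8.79 and 7.68 FPKM), both on the opposite strand. On the same strand, Manf overlaps Rbm15b (4.62 and 4.85 FPKM) and Hsp90b1 overlaps Gm15344 (5.06 and 5.17 FPKM). Strand use in counting was not given in the sources used here.

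Derlins are multi-pass proteins that form part of the exit channel. Derl1 rose from 75.7, 75.1 and 81.7 to 91.0, 91.0 and 90.3 FPKM (log2 fold change 0.23, SE 0.040, adjusted p = 0.0192), with Fbxw11 libraries within 1 FPKM of each other and control library 3 the highest of the controls. Derl2 stood at 8.93 ± 0.175 and 9.37 ± 0.801 FPKM with overlapping groups (adjusted p = 0.606). Selenos, a selenoprotein that tethers the ATPase Vcp to derlins, rose from 75.2, 74.2 and 74.4 to 81.8, 87.4 and 86.2 FPKM (log2 fold change 0.19, SE 0.035, adjusted p = 0.0227). Herpud1, a membrane protein that organises the ligase complex and is strongly induced by ER stress, was at 115, 119 and 123 FPKM with control vector and 132, 135 and 148 FPKM with Fbxw11. It only just passed (log2 fold change 0.21, SE 0.051, adjusted p = 0.0498), and the call was lost with each single library left out.

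The EDEM proteins trim mannose from misfolded glycoproteins and so mark them for disposal. Edem1 fell from 74.0, 75.9 and 74.5 to 68.7, 66.4 and 66.0 FPKM (log2 fold change -0.16, SE 0.031, adjusted p = 0.0282), with every Fbxw11 library below every control. Edem2 was at 16.1, 17.9 and 17.1 FPKM with control vector and 19.8, 18.6 and 19.4 FPKM with Fbxw11 (log2 fold change 0.17, adjusted p = 0.0866), and Edem3 at 16.2, 15.5 and 15.7 FPKM with control vector and 17.4, 17.9 and 16.6 FPKM with Fbxw11 (log2 fold change 0.12, adjusted p = 0.12). Both were higher in every Fbxw11 library than in any control, without passing. The ratio of Edem1 to Edem2 within a library was 4.40 ± 0.186 in control and 3.48 ± 0.0876 in Fbxw11 libraries (SD, n = 3, exact two-sided permutation p = 0.10, adjusted 0.133).

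Os9, a lectin that delivers trimmed glycoproteins to Sel1l, stood at 64.9 ± 2.12 FPKM with control vector and 73.5 ± 3.76 FPKM with Fbxw11, without overlap (adjusted p = 0.0672). Vcp, the ATPase that pulls substrates into the cytosol, was at 94.3, 95.4 and 115 FPKM with control vector and 101, 104 and 108 FPKM with Fbxw11 (adjusted p = 0.796), with control library 3 above all other libraries and a log2 fold change of 0.04, or 0.13 without that library, which did not pass either. The table also lists a processed pseudogene, Vcp-rs, at a mean of 40.2 FPKM, so the split of reads between the copies is uncertain.

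Of the sensors and signalling genes 1 of 5 rose. Xbp1, whose messenger RNA is spliced by IRE1 to give the active factor, was at 58.8, 56.9 and 60.5 FPKM with control vector and 70.4, 69.0 and 71.6 FPKM with Fbxw11. All 3 Fbxw11 libraries exceeded the controls, and Xbp1 rose 1.20-fold (log2 fold change 0.26, SE 0.035, adjusted p = 0.00831), a call kept under all 15 alternatives. Gene-level FPKM does not separate spliced from unspliced Xbp1. Ern1, the sensor that does the splicing, stood at 23.2, 21.2 and 22.7 FPKM with control vector and 21.8, 22.1 and 21.8 FPKM with Fbxw11 with overlapping groups and a confidence interval of -0.13 to 0.07 for the log2 fold change. The ratio of Xbp1 to Ern1 within a library was 2.63 ± 0.0819 in control and 3.22 ± 0.0814 in Fbxw11 libraries (SD, n = 3, exact two-sided permutation p = 0.10, adjusted 0.133).

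Atf6, the membrane factor cleaved under stress, stood at 59.4, 58.4 and 59.3 FPKM with control vector and 61.5, 64.6 and 63.6 FPKM with Fbxw11 (log2 fold change 0.10, SE 0.032, adjusted p = 0.114), higher in every Fbxw11 library by a small amount. Eif2ak3, the kinase PERK, was the least abundant tested member at 3.33, 3.29 and 2.84 FPKM with control vector and 3.81, 3.67 and 4.07 FPKM with Fbxw11 (log2 fold change 0.23, SE 0.067, adjusted p = 0.0925). At such a level the log2(FPKM + 1) scale understates the ratio of means, which was 1.22. Ppp1r15a, the phosphatase subunit that reverses the PERK signal, stood at 114, 124 and 120.0 FPKM with control vector and 141, 126 and 139 FPKM with Fbxw11 (log2 fold change 0.18, SE 0.054, adjusted p = 0.0974). None of these 3 passed. Each lay higher in the Fbxw11 libraries without overlap, as did 15.6% of all genes tested.

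Both Sec61 subunits rose, and Ssr1 did not pass. Sec61a1, the channel pore, rose from 49.6, 49.2 and 50.4 to 56.6, 56.3 and 55.7 FPKM (log2 fold change 0.17, SE 0.028, adjusted p = 0.0151). Its small partner Sec61b rose from 47.3, 48.9 and 46.5 to 55.5, 54.0 and 54.4 FPKM (log2 fold change 0.20, SE 0.033, adjusted p = 0.0152). Libraries of a group differed little from each other in both genes. Ssr1, of the translocon-associated complex, stood at 32.7 ± 1.88 and 33.1 ± 0.651 FPKM with overlapping groups (adjusted p = 0.826), and its sign turned on the TPM scale and over plain read sums.

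Summed over the 35 genes, the level was 4713 ± 30.9 FPKM with control vector and 5301 ± 65.8 FPKM with Fbxw11 (SD, n = 3). Without Hspa5 it was 3798 ± 28.2 and 4149 ± 41.6 FPKM. The lowest Fbxw11 sum over the 35 genes, 5227 FPKM, was above the highest control sum, 4748 FPKM. The sum over all rows with the name of a tested gene was also higher in every Fbxw11 library. It was between 295248 and 297376 FPKM against between 285138 and 288977 FPKM, and 742 of its 11640 rows were not themselves tested. The sum of other ER genes, in 6 lists by function, was higher too, at between 4036 and 4113 FPKM against between 3899 and 3924 FPKM.

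Set beside the promoter letters, Hspa5 was the only gene with an ERSE match that passed, of 8 tested (median log2 fold change 0.17, range 0.03 to 0.33). Among the 21 genes with a window and no ERSE match 6 rose and 1 fell (median 0.16, range -0.16 to 0.26). With the looser ERSE, 2 of 12 tested genes with a match rose (Hspa5 and Herpud1, median 0.14), and 5 of 17 without one rose and 1 fell (median 0.17). The differences between these sets were not tested. Hyou1, Manf, Derl1 and Sec61a1, which rose, and Atf6, which did not pass, had no window and were not searched. Sel1l and Xbp1, which rose under each alternative run, had no match to any of the 6 motifs in the stretches shown, which says only that those letters are not in those windows.

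The other ER genes of the 6 lists, none of them among the 35, had fewer calls. Of 119 tested 3 rose (2.52%) and 1 fell (0.840%), against 4.60% and 4.64% of all genes tested. The median log2 fold change was 0.04, and 89 were above 0 (74.8%, against 50.9% of all genes tested). Values lay higher in the Fbxw11 libraries without overlap for 25 (21.0%, against 15.6% of all genes tested). Without both libraries numbered 3, 6 rose and 0 fell, against 3.36% and 3.08% of all genes tested, and 54 lay higher without overlap (45.4%, against 28.8%). Those 6 were Serp1, Sdf2, Spcs2, Srprb, Tmbim6 and Ube2g2, all but Serp1 and Tmbim6 named only here, after their values were seen. Serp1, which stabilises new membrane proteins at the translocon, rose from 80.5, 78.5 and 80.5 to 93.9, 99.9 and 102 FPKM (log2 fold change 0.30, SE 0.040, adjusted p = 0.00718). This call was kept under all 15 alternatives, and all Fbxw11 libraries lay above the controls. Txndc11, an ER thioredoxin-type protein, rose from 5.39, 5.34 and 5.47 to 6.32, 6.43 and 6.58 FPKM (log2 fold change 0.22, SE 0.039, adjusted p = 0.0198), a call lost under 6 alternatives. Ssr2, a partner of Ssr1, rose from 138, 146 and 136 to 166, 161 and 152 FPKM (log2 fold change 0.19, SE 0.045, adjusted p = 0.0489), a call lost under 12.

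By list, 1 of 16 genes of redox folding rose, 1 of 11 of glycoprotein quality control fell, 1 of 17 co-chaperones and luminal factors rose and 1 of 28 of translocation and glycosylation rose. The shares over all genes tested were 4.60% for rises and 4.64% for falls. Without both libraries numbered 3 the rises in these 4 lists were 0, 0, 2 and 2, with 0 falls (3.36% and 3.08% over all genes tested). The fall was Erlec1, a lectin of degradation like Os9, from 14.1, 14.5 and 14.7 to 12.2, 12.9 and 13.0 FPKM (adjusted p = 0.0463, lost under 10 alternatives). By limma 0 of 28 further degradation genes and 0 of 19 signalling genes passed, and 1 of each rose without both libraries numbered 3. The most abundant of them were Rad23b (96.1 ± 3.49 and 92.3 ± 3.07 FPKM), Ubxn4 (50.2 ± 0.179 and 53.2 ± 2.54 FPKM), the transcription factor Atf4 (247 ± 12.2 and 253 ± 4.15 FPKM, adjusted p = 0.671) and Tmbim6 (109 ± 2.56 and 121 ± 3.52 FPKM, adjusted p = 0.051).

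Chaperones of the cytosol and mitochondria had a median log2 fold change of 0.01 over 21 tested genes, with 1 rise and 2 falls. The shares over all genes tested were 4.60% and 4.64%. Without both libraries numbered 3 there were 1 rise (Lonp1) and 1 fall (Hspa8), against 3.36% and 3.08% over all genes tested. Hspa8, the constitutive cytosolic Hsp70, fell from 65.9, 69.9 and 68.0 to 53.1, 53.8 and 56.5 FPKM (log2 fold change -0.31, SE 0.039, adjusted p = 0.00584), a call kept under all 15 alternatives. Hsph1, a cytosolic partner of Hsp70, fell from 21.6 ± 0.105 to 19.6 ± 0.179 FPKM, and the mitochondrial Hspa9 rose from 391 ± 6.85 to 433 ± 7.08 FPKM, calls lost under 9 and 11 alternatives.

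**Figure D4:**
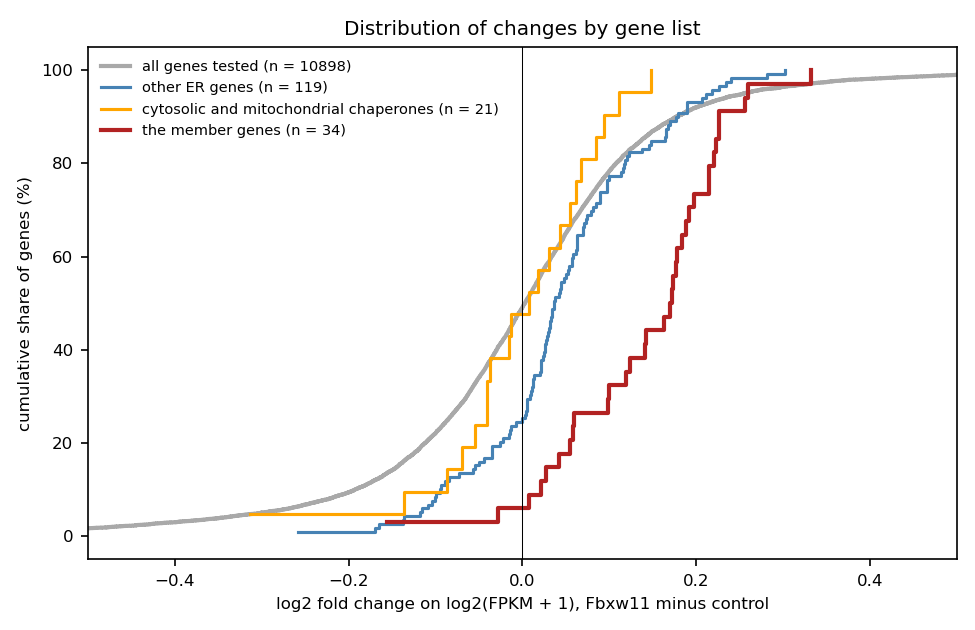
Cumulative share of genes (y axis, %) by log2 fold change (x axis, Fbxw11 minus control, central range only) for the 34 tested members, 119 other ER genes, 21 cytosolic and mitochondrial chaperones and all 10898 genes tested. The member curve lies to the right, with its median at 0.17 against 0.04, 0.01 and 0.00.

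**Figure D5:**
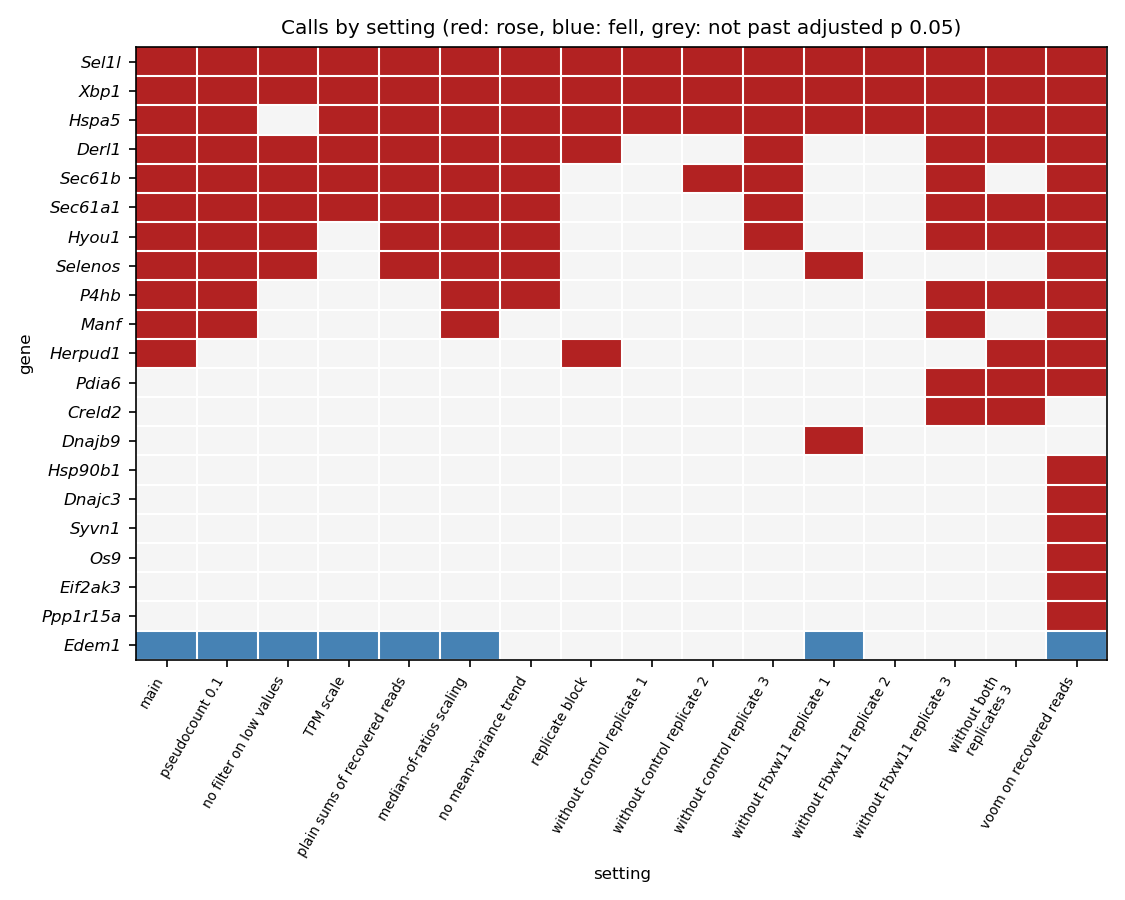
Calls of each gene (rows) under the reported analysis and 15 alternatives (columns), red where it rose, blue where it fell and grey where the adjusted p was 0.05 or more. Genes called under no setting are not drawn. Sel1l and Xbp1 are red in every column and Hspa5 in all but 1.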

How the data were processed

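RNA-seq of 3 control and 3 Fbxw11 libraries was deposited as a gene table. Its FPKM values were made by the authors, per the file headers, with 1 column per library, gene names, lengths and coordinates. The submitters' processing notes name mm10, yet only 2.76% of 52036 nuclear genes had the start and end of the GENCODE annotation of that build (2 of 35 members), so the coordinates are the table's own. Aligner, counter and filters: not given in the sources used here. FPKM times gene length was a whole multiple of 1 step per library (100% of values within 0.02 reads), which gave the reads. The authors' library size was 1.01 to 1.02 times the read sum in control and 0.987 to 0.993 times in Fbxw11 libraries. Reads are not independent molecules, and depth covers counting error only.

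Values were tested as log2(FPKM + 1), with a mean of at least 1 FPKM, by limma 3.58.1 in R 4.3.3 (eBayes with a trend, two-sided, no covariate). The procedure was tested on simulated data. Alternatives changed the pseudocount to 0.1, the filter, the scaling (TPM, plain read sums, median of ratios), the variance trend, a replicate block, the libraries left out and the model (voom on recovered reads). No 2 libraries of a group were the same within sampling noise (chi-square over degrees of freedom 2.42 to 5.86). Members and lists were chosen with earlier results of these data known. All 35 members are named. From each other list up to 3 called genes with the smallest p are named, or the 2 most abundant where none passed. Promoters were taken from RefSeq, GRCm38.p6.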

Additional observations from a re-analysis of the deposited data

How the results depend on the processing

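Of 510 values of single members under 15 alternatives, 416 kept direction and side of the threshold, 69 lost a call, 12 gained one and 13 turned sign, all 13 in Canx, Pdia4, Vcp and Ssr1, which did not pass in any. On the TPM scale the log2 fold changes were -0.016 for Canx, -0.035 for Pdia4, -0.00085 for Vcp and -0.021 for Ssr1, and over plain read sums -0.0095, -0.029 and -0.015 for Canx, Pdia4 and Ssr1. With libraries left out the lowest and highest values were -0.013 and 0.034 for Pdia4, -0.0079 and 0.13 for Vcp and -0.033 and 0.053 for Ssr1. Members that rose, 11 as reported, numbered 7 with low genes tested, 6 on the TPM scale and 18 with voom. Over all genes the rises in these 3 settings numbered 289, 348 and 719, against 501 as reported. Voom was added after seeing the data and called all 12 reported members. With libraries left out the members that rose numbered 3 to 11. Members that fell, 1 as reported, numbered 0 without a variance trend and 0 to 1 with libraries left out. Other ER genes that rose (3) numbered 12 with voom and 1 to 6 with libraries left out, and those that fell (1) numbered 4 on the TPM scale, 4 over plain sums, 2 with voom, 0 with low genes tested, 0 without a trend and 0 with libraries left out. Over all genes 289 rose and 307 fell with low genes tested, and 719 rose and 770 fell with voom. With libraries left out 190 to 418 rose and 219 to 383 fell. The causes were not tested, though fewer libraries and more genes tested can also lower the number of calls by construction. A replicate block gave 5 rises and 0 falls among members, 1 and 0 among other ER genes and 303 and 318 over all genes. Same-numbered libraries correlated at 0.04, 0.04 and 0.19 in their deviations from group means. Control library 1 correlated best with Fbxw11 library 2 (0.15), while control libraries 2 and 3 correlated best with the Fbxw11 library of their own number. No pairing is stated in the labels, so the reported analysis did not take the numbers as pairs. These correlations do not settle whether they are pairs. The edgeR and DESeq2 alternatives were not run, and voom on the recovered reads was used in their place. Derl3, with at most 20 reads, is limited by depth.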
